A study of Mus musculus with 8 samples.

Results

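The genes described here are 10 that serve protein folding in the endoplasmic reticulum (ER), or that sense its failure: the chaperones Hspa5, Hsp90b1, Calr, Dnajb9, Dnajc3 and Pdia4, the degradation factor Herpud1, the sensors Ern1 and Atf6, and the transcription factor Xbp1. They were listed by name, and each was followed through the probe set that the platform annotation pairs with that symbol alone. A probe set was found for 9 of the 10, out of 19505 named genes on the arrays, and each of the 9 had 1 probe set; Pdia4 was not analysed here. RNA came from hematopoietic stem cells of mouse bone marrow, taken from animals of 6 to 10 weeks and sorted as lineage-negative cells that carry Sca-1, c-Kit and CD150 but not CD48. The sorted cells were kept in a culture medium with stem cell factor at 100 ng/ml. For 16 h, 4 samples (titled EP, numbers 1 to 4) received eltrombopag at 10 µg/ml and 4 samples (titled NT, numbers 1 to 4) received sterile water as vehicle. Eltrombopag activates the thrombopoietin receptor and chelates iron. The design asks whether these cells' transcripts differ with the drug. The labels name biological replicates but not the strain, the sex or the animals behind each number; a p-value here covers sample-to-sample spread, which may be technical.

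Proteins that enter the ER are folded there by chaperones of the HSP70, HSP90 and lectin families and by enzymes that form disulfide bonds. When unfolded protein builds up, 3 sensors in the ER membrane respond: IRE1 (gene Ern1), which splices the Xbp1 transcript so that an active factor is made, ATF6 (gene Atf6), which is cut in the Golgi to release a transcription factor, and PERK (gene Eif2ak3), which slows translation and favours ATF4. ATF6 and spliced XBP1 raise chaperone and degradation genes, and ATF4 raises amino acid and stress genes such as Asns, Chac1 and Ddit3. ATF4 is also made when other kinases sense a lack of amino acids or of heme, so its targets are not specific to the ER. In blood stem cells the response is known as a quality control that can lead to death of stressed cells. The arrays measured whole-gene transcript levels, so splicing of Xbp1, cleavage of ATF6 and activity of the sensors were not measured.

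Several of these genes carry in their promoters the sequence that ATF6 is known to bind together with NF-Y. That sequence, the ER stress response element (ERSE), was searched as CCAAT, then 9 bases of any kind, then CCACG, on both strands, in the RefSeq windows from 250 bases before to 50 bases after each start site (build GRCm38.p6). A window was found for 9 of the 10 genes, all but Atf6. ERSE stood in 4 of the 9, against 0.119% of all 32851 windows and 0.137% of the 27025 genes that have a window. Its second form, ERSE-II, searched as ATTGG, 1 base, then CCACG, stood in 1 of the 9 (Herpud1), against 0.0365% of windows and 0.0444% of genes. The XBP1 and ATF6 core TGACGTGG stood in 0 of the 9, against 0.676% of windows and 0.714% of genes. Among 61 other genes of the response, listed below, ERSE stood in 6, ERSE-II in 1 and the core in 3. The other 4, Xbp1, Ern1, Dnajb9 and Pdia4, held none of the 3 motifs in this window. These matches are a description of the letters, not evidence of binding.

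The stretches below show where the matches lie, in capitals, 5′ to 3′ on each gene's own strand. Hspa5 is given from base -250 to base -1 before its start site (chr2:34771840-34772089, plus strand), Hsp90b1 from -232 to -69 (chr10:86705513-86705676, minus strand), Calr from -182 to -124 (chr8:84847055-84847113, minus strand), Dnajc3 from -125 to -67 (chr14:118937807-118937865, plus strand) and Herpud1 from -72 to -22 (chr8:94386357-94386407, plus strand). A match on the opposite strand reads CGTGG first and ATTGG last, as in Calr and the second match of Hsp90b1. The last 100 bases before the start of Xbp1 (chr11:5520541-5520640, plus strand) are shown because Xbp1 had the largest spread of the 9 measured genes.
Hspa5: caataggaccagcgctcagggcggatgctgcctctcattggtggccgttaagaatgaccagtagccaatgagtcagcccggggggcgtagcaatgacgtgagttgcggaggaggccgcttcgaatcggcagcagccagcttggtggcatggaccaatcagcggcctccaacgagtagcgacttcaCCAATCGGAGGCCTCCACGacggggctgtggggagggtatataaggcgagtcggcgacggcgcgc
Hsp90b1: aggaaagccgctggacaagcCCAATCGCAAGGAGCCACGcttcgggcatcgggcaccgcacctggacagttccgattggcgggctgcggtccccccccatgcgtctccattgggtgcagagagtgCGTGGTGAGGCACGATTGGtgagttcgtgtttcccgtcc
Calr: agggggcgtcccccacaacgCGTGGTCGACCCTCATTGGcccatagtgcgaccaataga
Dnajc3: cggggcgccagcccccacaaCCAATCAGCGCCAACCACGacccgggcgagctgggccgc
Herpud1: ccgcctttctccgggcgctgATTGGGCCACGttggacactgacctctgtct
Xbp1: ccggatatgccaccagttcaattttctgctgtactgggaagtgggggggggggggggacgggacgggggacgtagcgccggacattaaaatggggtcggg

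**Figure D1:**
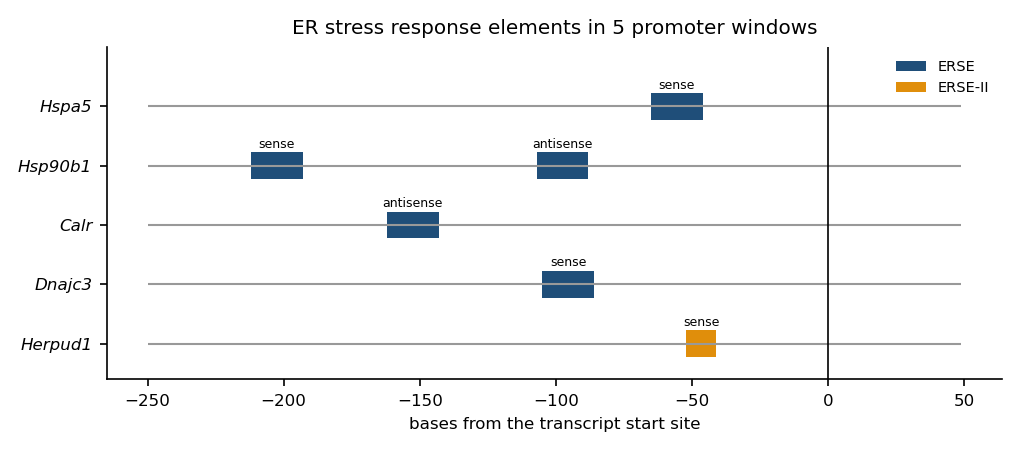
Position of each ERSE (blue) and ERSE-II (orange) match, in bases from the transcript start site, in the 5 promoter windows that hold one; the grey line is the window from 250 bases before to 50 after the start, and each bar spans the match, marked sense or antisense to the gene. The matches start between -212 (Hsp90b1) and -52 (Herpud1), and Hsp90b1 holds 2.

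The 8 arrays were alike in their log2 distribution (median per array 6.75 to 6.801), with correlations across genes from 0.987 to 0.993. Their main axis of variation (25.5% of the variance in a principal component analysis) followed the replicate number: numbers 1 and 2 scored from -18.8 to -11.0 and numbers 3 and 4 from 14.0 to 15.6, whichever the treatment. Of 10 stem cell markers 8 were measured, Kit, Slamf1, Procr, Hlf, Mecom, Tek, Fgd5 and Hoxb5, and all 8 had a mean above the arrays' mean lower quartile of 5.05. Markers of plasma cells, whose ER is large, were dim in 4 of 7 cases (Jchain, Mzb1, Tnfrsf17 and Prdm1 lay below that quartile), and so were all 5 mast cell and basophil markers. Other lists mostly cleared the same low bar. Below it lay 0 of 3 multipotent progenitor, 0 of 4 megakaryocyte and 1 of 9 neutrophil and monocyte markers. So did 1 of 4 B cell, 1 of 3 erythroid and 2 of 5 T and NK cell markers. Most genes lie above a lower quartile, so these counts do not tell which cells were present. Among the 9 ER genes measured, 8 had means above the arrays' mean upper quartile of 8.67, and the exception, Dnajc3, lay just under it (8.63 with vehicle, 8.60 with eltrombopag).

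Neither sensor passed. The SD over vehicle arrays was 0.04 for Ern1 and 0.15 for Atf6, and over eltrombopag arrays 0.05 for each (n = 4). Ern1 had log2 values of 9.50, 9.52, 9.49 and 9.59 with vehicle (numbers 1 to 4) and 9.40, 9.51, 9.51 and 9.45 with eltrombopag. Its groups overlapped, and the log2 difference of eltrombopag minus vehicle was -0.06 (95% interval -0.24 to 0.13). Atf6 had 10.95, 10.92, 10.69 and 10.67 with vehicle and 10.82, 10.84, 10.74 and 10.85 with eltrombopag. Its eltrombopag values lay inside the vehicle range, with a difference of 0.0065 (interval -0.21 to 0.23). This difference was so near 0 that it became -0.0034 when array medians were made equal, and no direction is given.

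Xbp1, whose spliced product drives chaperone and secretory genes, had a wider spread, and its drug difference did not pass. Its log2 values were 12.25, 12.08, 11.20 and 11.20 with vehicle and 12.05, 12.07, 11.19 and 11.16 with eltrombopag. In both groups numbers 1 and 2 were high and numbers 3 and 4 low, and the drug groups overlapped. Xbp1 was lower with eltrombopag in 4 of 4 pairs of equal number, by -0.21, -0.01, -0.0075 and -0.05. Those at numbers 2 and 3 were near 0. The labels state no pairing, and the share of all genes lower in 4 of 4 pairs is not given here. The drug difference was -0.07 (SE 0.30), with an interval from -0.73 to 0.59 that does not exclude a 1.5-fold change. With the replicate number as a block the SE was 0.089 and the interval -0.28 to 0.14. Within numbers 1 and 2 the difference was -0.11 (interval -0.48 to 0.26), and within numbers 3 and 4 it was -0.03 (interval -0.34 to 0.29).

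None of the 4 chaperones with an ERSE passed, and the groups overlapped for each. Hspa5 (BiP), the HSP70 chaperone that also holds the sensors inactive, had log2 values of 10.12, 10.34, 10.30 and 10.47 with vehicle and 10.23, 10.15, 10.31 and 10.39 with eltrombopag. The difference was -0.04 (interval -0.27 to 0.19), positive in 2 pairs of equal number and negative in 2. Hsp90b1 (GRP94), the HSP90 chaperone of the ER, had 11.15, 11.15, 11.31 and 11.33 with vehicle and 11.14, 11.02, 11.40 and 11.19 with eltrombopag. The difference was -0.05 (interval -0.28 to 0.19). Calr (calreticulin), a lectin chaperone that binds calcium, had 10.43, 10.51, 10.56 and 10.53 with vehicle and 10.42, 10.34, 10.59 and 10.38 with eltrombopag, a difference of -0.07 (interval -0.28 to 0.13). Dnajc3 (p58IPK), a J-domain partner of BiP, had 8.45, 8.56, 8.88 and 8.64 with vehicle and 8.65, 8.46, 8.66 and 8.62 with eltrombopag, a difference of -0.03 (interval -0.28 to 0.22). Vehicle array 3 was the highest for Dnajc3.

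Dnajb9 (ERdj4), a J-domain partner of BiP that also represses IRE1, had the largest drug difference of the 9 and did not pass either. Its log2 values were 9.87, 9.84, 9.92 and 9.62 with vehicle and 9.46, 9.64, 9.58 and 9.77 with eltrombopag. The eltrombopag values were lower at numbers 1 to 3 and higher at number 4, so the groups overlapped. Vehicle arrays averaged 9.81 ± 0.13 (SD, n = 4) and eltrombopag arrays 9.61 ± 0.13 (SD, n = 4). The difference was -0.20 (SE 0.11, unadjusted p = 0.0891, adjusted p = 0.99978 in limma). It was -0.31 within numbers 1 and 2 and -0.09 within numbers 3 and 4. Without vehicle array 4 it was -0.26 (interval -0.51 to -0.02, unadjusted p 0.0355, adjusted p 0.99988 in limma). That was the smallest unadjusted p for this gene among 19 settings. Without eltrombopag array 1 the difference was -0.15 (interval -0.40 to 0.10, unadjusted p 0.215 in limma). Herpud1, a membrane protein that serves ER-associated degradation, had 10.49, 10.40, 10.06 and 9.94 with vehicle and 10.25, 10.60, 9.94 and 9.96 with eltrombopag. As with Xbp1, numbers 1 and 2 were the high ones in both groups, and the drug difference was -0.03 (interval -0.42 to 0.35).

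**Figure D2:**
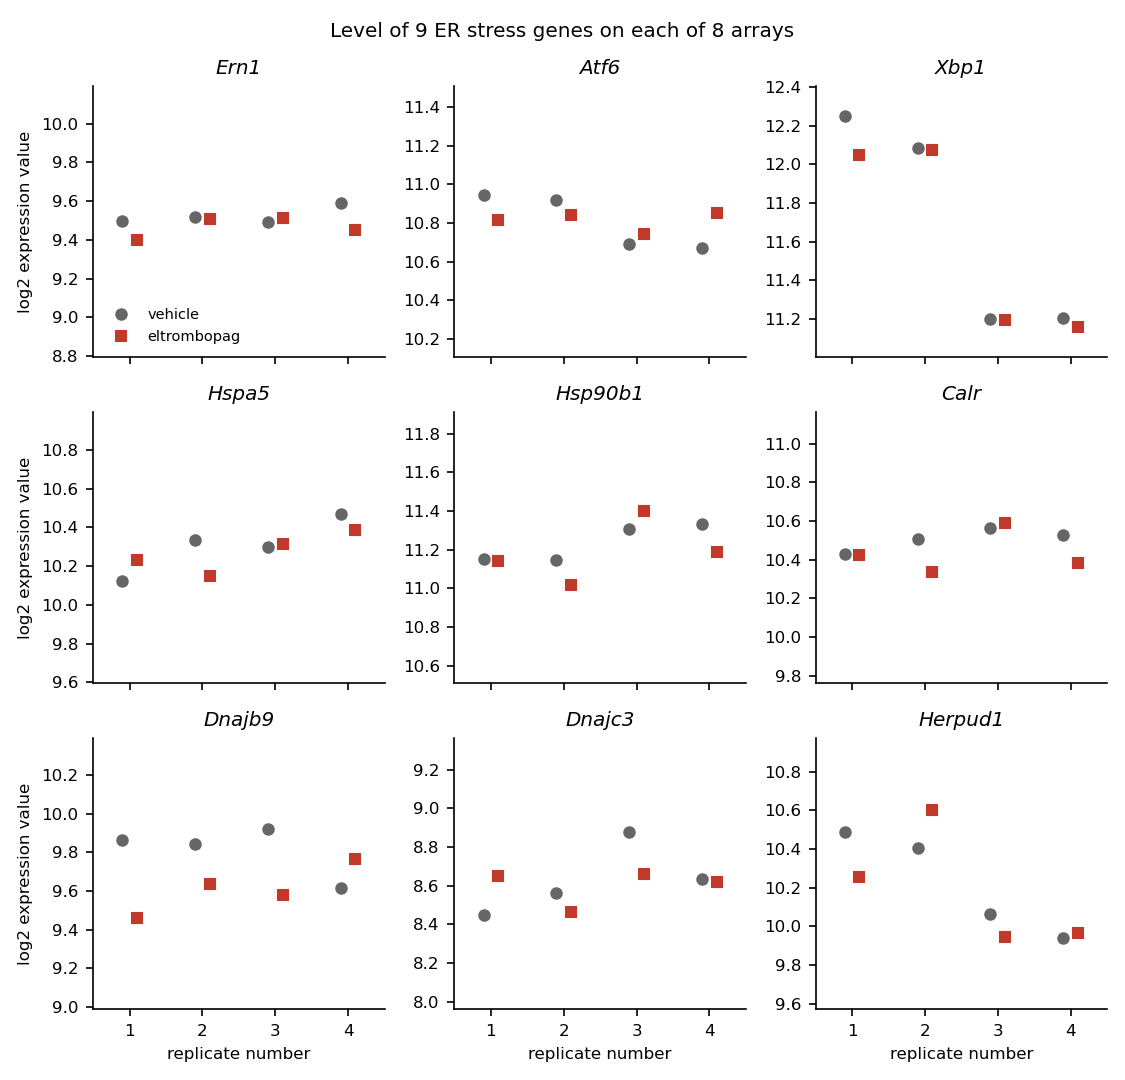
Log2 expression value (vertical axis, 1.4 log2 units in every panel, with a different start) against replicate number for each of the 9 genes, with vehicle arrays as grey circles and eltrombopag arrays as red squares, 1 point per array. Xbp1 lies at 12.05 to 12.25 in numbers 1 and 2 and at 11.16 to 11.20 in numbers 3 and 4 in both groups, and Herpud1 at 10.25 to 10.60 against 9.94 to 10.06.

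Between eltrombopag and vehicle, 0 of the 9 genes passed limma's test at adjusted p under 0.05, where 0% of all 19505 genes passed (smallest adjusted p 0.99978). At an unadjusted p under 0.05 there were 0 of the 9, against 650 of all genes (3.33%). Non-overlapping groups were found in 0 of the 9, against 2.12% of all genes. The difference was below 0 in 8 of the 9, with a median of -0.05, while over all genes the median was 0.0071 and 52.3% were above 0. Equal array medians shift the difference of every gene down by the same amount. Atf6 then went from 0.0065 to -0.0034, which put all 9 below 0. The share over all genes with that scaling is not given here. The median difference of the 9 genes was -0.10 in the pair of arrays numbered 1, -0.10 in number 2, 0.01 in number 3 and -0.05 in number 4. The 95% interval lay within a 1.5-fold change in either direction for 8 of the 9, all but Xbp1, and with the replicate block for all 9. For Hspa5 that interval spans 0.83-fold to 1.14-fold, and for Dnajb9 0.74-fold to 1.03-fold. The interval reached 0.24 log2 units to either side of the estimate for the median of the 9 genes.

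**Figure D3:**
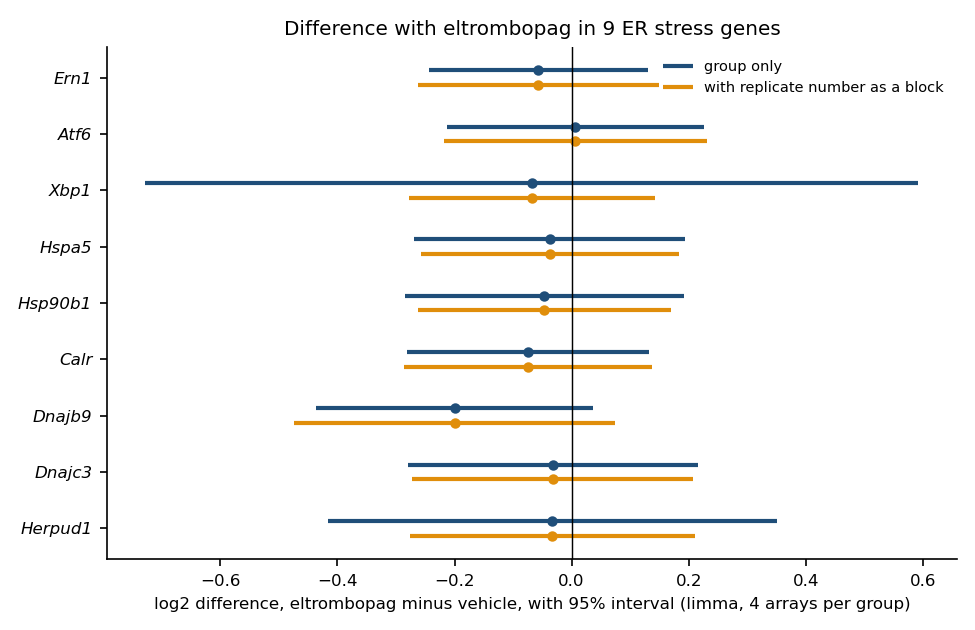
Log2 difference of eltrombopag minus vehicle (horizontal axis) for the 9 genes, with its 95% interval from limma over 4 arrays per group, without (blue) and with (orange) the replicate number as a block. All intervals include 0, and that of Xbp1 narrows from -0.73 to 0.59 without the block to -0.28 to 0.14 with it.

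The same arrays allow a second question, which the labels' numbering poses: whether levels differ between the replicate numbers, with the group as a term. Each number has 1 vehicle and 1 eltrombopag array, and the moderated F test of limma treats them as independent, so it sets the spread between numbers against the spread within them. It called 41 of 19505 genes (0.21%). Of the 9 ER genes 0 passed, and 2 had an unadjusted p under 0.05, against 10.2% of all genes. Those were Xbp1 and Herpud1.

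Xbp1 missed the threshold narrowly, with an adjusted p of 0.0522 (42nd smallest p of all genes). Its means at numbers 1 to 4 were 12.15, 12.08, 11.20 and 11.18, so the highest was 1.96-fold the lowest. A range of number means as large was found in 1.60% of genes. It passed without the group term (adjusted p 0.0237), among genes above the median level (0.0265) and with quantile normalization repeated (0.0489), and not with equal medians (0.0501). Leaving out any 1 of the 4 numbers gave adjusted p-values from 0.164 to 0.197, with 6 arrays in the fit. Herpud1 had number means of 10.37, 10.50, 10.00 and 9.95, a highest to lowest ratio of 1.47-fold, with an adjusted p of 0.387 (unadjusted 0.0163).

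None of the chaperones passed across numbers. The number means of Hspa5 were 10.18, 10.24, 10.31 and 10.43 (adjusted p 0.721), and those of Hsp90b1 were 11.15, 11.08, 11.35 and 11.26 (adjusted p 0.668). For Hsp90b1 the values of numbers 3 and 4 lay above all those of numbers 1 and 2, the opposite order to Xbp1, with a gap of 0.04. The ranges of number means were 0.15 for Calr, 0.08 for Dnajb9, 0.26 for Dnajc3, 0.07 for Ern1 and 0.16 for Atf6, with adjusted p-values from 0.728 to 0.977. The values of numbers 1 and 2 did not overlap those of numbers 3 and 4 for 3 of the 9 genes (Xbp1, Herpud1 and Hsp90b1), against 7.24% of all genes. That split was taken from the arrays' first principal component, so this count is a description. Across the 8 arrays, Pearson's r with Hspa5 was 0.62 for Hsp90b1, 0.49 for Calr, 0.48 for Dnajc3 and 0.39 for Ern1. It was -0.06 for Dnajb9, -0.56 for Atf6, -0.75 for Xbp1 and -0.81 for Herpud1. All these points share the arrays and their split by number.

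In the PERK and ATF4 arm, 4 of 10 genes differed between numbers, in the direction of Xbp1. This list was drawn up with results of these arrays known, so its count is no independent evidence. The 4 passed the F test across numbers, against the 0.21% of all genes, and the median range of number means was 1.29 log2 units against 0.28 over all genes. In all 4 the numbers 1 and 2 were high. Asns, which makes asparagine, had number means of 10.97, 10.85, 9.14 and 9.45 (adjusted p 0.00658). Chac1, which breaks down glutathione, had 7.86, 8.01, 5.66 and 5.86 (adjusted p 0.00885), a highest to lowest ratio of 5.07-fold. Nupr1, a small stress-induced nuclear protein, had 10.63, 10.43, 9.08 and 9.16 (adjusted p 0.0356). Ddit3 (CHOP), the factor tied to death under lasting ER stress, had 10.08, 10.17, 9.20 and 9.13 (adjusted p 0.0489).

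Other genes of this arm, named after their values were seen, ran the same way without passing. The number means of Atf4 were 11.88, 11.84, 11.34 and 11.24 (adjusted p 0.203). Those of Sesn2 were 7.66, 7.94, 6.37 and 6.24 (adjusted p 0.0567), and those of Trib3 9.78, 9.77, 8.56 and 8.05 (adjusted p 0.0889). Ppp1r15a, Ppp1r15b and Cebpb had ranges of 0.22, 0.20 and 0.31 only. The PERK gene Eif2ak3 itself had an adjusted p of 0.546. With eltrombopag, 0 of the 10 passed (2 higher, 8 lower, median -0.09). Without any 1 number, Asns kept passing except without number 3 (adjusted p 0.0644), and Chac1 passed without number 1 or 4 but not without number 2 (0.0539) or 3 (0.0644). Ddit3 and Nupr1 passed in none of these 4 smaller fits, and Ddit3 also missed with quantile normalization repeated (0.0520).

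**Figure D4:**
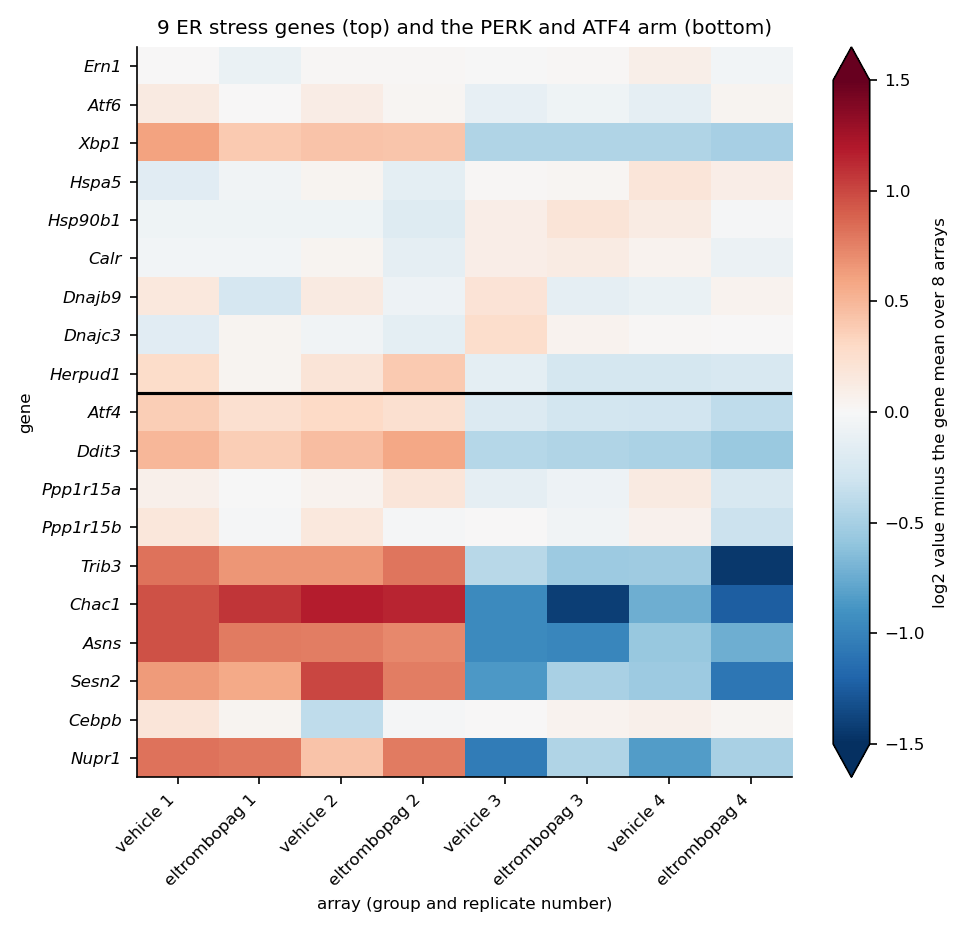
Log2 value minus the gene's mean over the 8 arrays (colour, red above and blue below, with the scale ending at 1.5) for the 9 ER genes above the black line and the 10 genes of the PERK and ATF4 arm below it, with arrays ordered by replicate number. Xbp1 and Herpud1 are above their mean in numbers 1 and 2 and below it in numbers 3 and 4, as are Atf4, Ddit3, Trib3, Chac1, Asns, Sesn2 and Nupr1, while Hspa5, Hsp90b1, Calr and Dnajc3 stay pale.

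Markers of other cells were read beside this split. The mean of the 8 stem cell markers ran from 8.68 to 9.06 in numbers 1 and 2 and from 9.001 to 9.18 in numbers 3 and 4. The mean of the 9 neutrophil and monocyte markers ran from 6.22 to 6.49 and from 6.48 to 6.91. For the 7 plasma cell markers, of which Derl3 is also in the degradation list, it ran from 4.96 to 5.13 and from 5.06 to 5.09, and for the 4 B cell markers from 5.71 to 5.84 and from 5.75 to 6.01. Multipotent progenitor markers (3 measured) ran from 9.03 to 9.19 and from 8.86 to 9.14, T and NK cell markers (5) from 5.47 to 5.66 and from 5.41 to 5.70, and erythroid markers (3) from 5.85 to 6.00 and from 5.91 to 6.74. Megakaryocyte markers (4) ran from 7.75 to 8.201 and from 7.93 to 8.28, and mast cell and basophil markers (5) from 4.21 to 4.33 and from 4.15 to 4.44. Single markers differed more than their list means. The neutrophil genes S100a8 and Ngp averaged 4.499 and 5.30 in numbers 1 and 2 against 5.88 and 6.76 in numbers 3 and 4 (adjusted p 0.117 and 0.629 in limma). The stem cell marker Tek averaged 7.12 against 8.22 (adjusted p 0.239). S100a8, Ngp and Tek were named after their values were seen. In the same lists Elane (7.56 in numbers 1 and 2 against 7.14 in numbers 3 and 4) ran the other way. So did Slamf1 (7.09 against 6.99). Itgam (6.36 against 6.41) and Hoxb5 (7.40 against 7.41) differed little. In all 9 marker lists 0 genes passed across numbers. The part of cell makeup in the split was not tested, and fewer cells of a type cannot be told apart here from less RNA per cell. The labels give no date or batch for a number, so batch and number cannot be told apart.

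The wider folding machinery was measured through 72 further genes in 6 lists, and 0 of the 72 passed between eltrombopag and vehicle. At an unadjusted p under 0.05 there were 0 of the 72, against 3.33% of all genes. With the replicate block 1 of the 72, Nupr1, had an unadjusted p under 0.05, where 904 of all 19505 genes did. The difference of Nupr1 was then 0.32 (interval 0.04 to 0.60, unadjusted p 0.0289, adjusted p 0.984 in limma), higher in 3 of 4 pairs. Without the block its interval was -0.68 to 1.32. Of these 72, 29 were higher and 43 lower, with a median difference of -0.02. Folding helpers were higher in 9 of 13 cases (median 0.03). Oxidation and disulfide enzymes were higher in 4 of 11 (median -0.05), degradation genes in 5 of 13 (-0.05), translocation and glycosylation genes in 8 of 16 (-0.0022), and other sensors and processors in 1 of 9 (-0.06). Across replicate numbers these 5 lists held 0 genes that passed. Fkbp11, a proline isomerase of secretory cells, was named after its values were seen: its number means were 8.997, 8.57, 7.69 and 8.09 (adjusted p 0.180).

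The genes of these lists with the smallest drug p in each direction did not pass. On the lower side, the disulfide enzyme Qsox1 averaged 10.16 ± 0.13 (SD, n = 4) in vehicle arrays and 9.94 ± 0.12 (SD, n = 4) in eltrombopag arrays, which differ by -0.21 (adjusted p 0.99978 in limma). Ppp1r15b, which helps phosphatase restart translation, had 9.31, 9.30, 9.15 and 9.21 with vehicle and 9.13, 9.12, 9.09 and 8.82 with eltrombopag. Its groups did not overlap, as in 2.12% of all genes, and it was lower in 4 of 4 pairs. The difference was -0.20 (unadjusted p 0.0715 in limma). Ppp1r15b was chosen by its small p, so these traits are no further evidence. Creb3, a factor of the ER membrane, differed by -0.33 (SE 0.19). On the higher side stood Derl3 of the degradation channel (0.21, SE 0.13), the proline isomerase Ppib (0.13, SE 0.091) and Srprb of the signal recognition particle receptor (0.15, SE 0.13). Ppib and Srprb were higher in 4 of 4 pairs, and Derl3 in 3. These genes too were chosen by their small p, so the pair counts are no further evidence. The share of all genes with such counts is not given here.

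**Figure D5:**
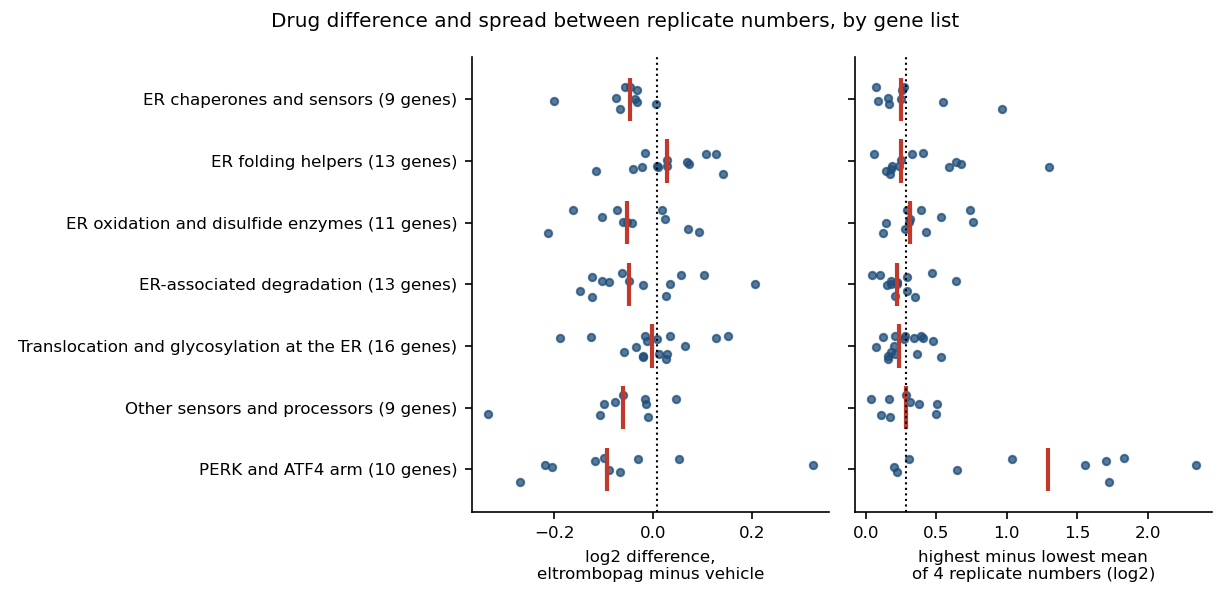
Log2 difference of eltrombopag minus vehicle (left) and highest minus lowest of the 4 number means in log2 units (right) for the 9 ER genes and 6 lists, 1 point per gene, with the list's median as a red bar and the median of all 19505 genes as a dotted line. On the left every list's median lies within 0.11 of that of all genes, and on the right the PERK and ATF4 arm has a median of 1.29 against 0.28 for all genes.

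Outside these lists, the 5 genes whose levels followed Hspa5 most closely over the 8 arrays were Chmp3 (Pearson's r 0.96), Vmn1r244 (0.96), Bmp7 (0.95), Apol7d (0.94) and Car15 (0.94). The measure is a description over 8 arrays that share their split by number. Their log2 values ran from 4.69 to 4.96 for Vmn1r244 and from 6.79 to 7.66 for Chmp3. In each the drug difference had an adjusted p of 0.99978 in limma.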

How the data were processed

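RNA of sorted mouse hematopoietic stem cells was amplified from about 10 ng with a 3′ IVT kit, biotin-labelled and hybridised to Affymetrix arrays, 4 per group, per the labels' protocols. The authors deposited a log2 level for each probe set on each array. Tools listed in the submitters' processing notes are RMA, oligo and limma (versions not stated). RMA sets all arrays to a common distribution, which removes differences in total RNA. No source used here gives the probe sets' genome build.

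Of 22206 probe sets, 19572 had 1 symbol, 0 had several and 2634 are unnamed here; the highest-mean probe set stood for each of 55 genes with several. No filter was set on dim genes. limma 3.58.1 (R 4.3.3, lmFit and eBayes, two-sided) was fitted to all 19505 genes with group as the term, and as an F test over the 4 replicate numbers with group as a covariate. Benjamini-Hochberg adjustment ran over all genes, with a threshold of 0.05. The scripts were tested on simulated data. Precision is limited by the number of arrays, and the 95% interval reached 0.28 to either side of the estimate for the median gene.

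Deviations from the group means correlated at 0.232, 0.286, 0.181 and 0.133 between arrays of the same number, all over 0.1. Vehicle array 3 with eltrombopag array 4, and vehicle array 4 with eltrombopag array 3, both gave 0.17, above the 0.133 of number 4, so numbers 3 and 4 were not told apart as pairs. The labels state no pairing. Intervals and p-values are from the unpaired fit unless the replicate block is named; that block was an alternative. Others were the number as a random effect, a filter on genes below the median, 2 scalings, array weights, another variance prior, the mean of probe sets, and leaving out arrays. The list genes matched in 72 of 76 cases, 3 of them through a synonym. The rule for named genes took all 9 measured genes of the family, the 3 list genes with the smallest p in each direction and any that passed, and the 5 genes most correlated with Hspa5. The genes and lists were chosen with earlier results of these data known. Promoter windows are from RefSeq, GRCm38.p6.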

Additional observations from a re-analysis of the deposited data

Results flagged for a closer look

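A lone distant value was searched for in 38 groups of 4 arrays, over 19 genes. These were the 9 ER genes, the 3 list genes with the smallest drug p in each direction, and the 4 that passed across numbers. Other genes named in the text, such as Sesn2, Fkbp11 and Ngp, were not searched. There was 1 such value, where chance gives about 1.9 (1 group in 20). Ppp1r15b had a log2 value of 8.82 in the eltrombopag array numbered 4. The remaining eltrombopag arrays lay between 9.09 and 9.13, which leaves a gap of 0.881 of the group's range.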

How the results depend on the processing

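The count of genes called between eltrombopag and vehicle was 0 in all 18 alternatives, and 0 of the 9 ER genes was called in any of them. With the replicate block the count was also 0, while genes with p under 0.05 before adjustment numbered 904 rather than 650, and the block changed no other call. The fits on numbers 1 and 2 or 3 and 4 alone were chosen after seeing the data. The replicate block, the random effect, the filter, the other variance prior and the mean of probe sets left these 9 differences unchanged. No sign could change there. Calr, Dnajb9 and Ern1 kept a negative sign in every alternative, and Dnajb9 ran from -0.26 (without vehicle array 4) to -0.15 when 1 array was left out. The other 6, whose differences lay near 0, changed sign in some, and the cause was not tested. With array weights Xbp1 was 0.034 and Herpud1 0.022; with equal medians Atf6 was -0.0034; in numbers 1 and 2 only Atf6 was -0.10 and Dnajc3 0.054. Leaving out 1 array in turn moved Hspa5 between -0.10 and 0.017, Hsp90b1 between -0.12 and 0.0097, Xbp1 between -0.23 and 0.12, Atf6 between -0.039 and 0.053, Dnajc3 between -0.093 and 0.051, and Herpud1 between -0.17 and 0.054. The median of the 72 list genes ran from -0.043 to 0.0027 when 1 array was left out, so its sign is not fixed. It was above 0 without eltrombopag array 3 (0.0014) or 4 (0.0027). The count of genes called across replicate numbers was 41, 41 to 50 with other scalings, filters or no group term, and 2 to 13 without 1 number (12 without number 1, 10 without number 2, 2 without number 3 and 13 without number 4), where fewer arrays are fitted.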
